A study of Drosophila melanogaster with 6 samples.

Results

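The genes hlk, klar, lobo and CG12885 carried probe sets with large differences under excess of the forkhead factor Jumu in the Drosophila melanogaster mesoderm. These differences were large beside the spread between replicate arrays. The genes were picked for these differences, as the probe sets that the platform annotation gives to exactly 1 gene with one of these symbols. That made 7 probe sets of 4 genes, among 11982 genes with such a probe set in 18769 tested probe sets. The levels and differences of these genes are therefore a description, and no test is given for them.

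Both groups were sorted GFP-positive cells of embryos aged at 29 °C to between late stage 11 and early stage 12, 3 arrays in each. All embryos carried the twist driver twi-GAL4 and the reporter UAS-2EGFP, which mark Twist-expressing mesodermal cells with GFP. The UAS-jumu group also carried a UAS-jumu transgene, driven by twi-GAL4 in the same cells and placed by its label across from them. The control is labelled with the driver and reporter alone, and whether it carried a matching transgene is not known. The labels number the replicates but do not say whether each was its own collection of embryos, so p-values given for other genes cover the spread between arrays, possibly technical, and no more.

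Klarsicht, the product of klar, is a KASH-domain protein of the outer nuclear membrane. It pairs with the SUN-domain protein of the inner membrane encoded by koi and links nuclei to microtubule motors, and in the fly it is known for nuclear migration in photoreceptors and for the transport of lipid droplets in the early embryo. The gene lobo (lost boys) is known for its role in sperm, where it is needed for their entry into the storage organs of the female, and its relatives in other organisms belong to the dynein regulatory complex of motile cilia and flagella. The older names of hlk in the RefSeq gene table are CG9432, CG9435 and CG30444, and those of lobo are CG13661, CG13662 and CG34110. No role is given here for hlk or CG12885.

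Signals are log2 values per probe set after quantile scaling between arrays. Replicates spread widely at log2 signals under about 6, a level that was set with the values in view. The median SD between control arrays was 1.37 for probe sets with a control mean from 2 to 3, 0.48 from 5 to 6, 0.22 from 7 to 8 and 0.11 from 9 to 10. Over the whole table limma called 255 probe sets higher (1.36%) and 264 lower (1.41%) in UAS-jumu, which in genes were 193 higher (1.61%) and 205 lower (1.71%). The median difference over all genes was -0.01 with this scaling, 0.19 with median centring, 0.49 with scaling to hybridization controls and 0.82 with scaling to poly-A controls. These control probe sets themselves differed between the groups in the deposited values. The poly-A controls had means of 7.52 to 7.63 in the UAS-jumu arrays and 8.33 to 8.53 in the control arrays. For the hybridization controls these were 12.74 to 13.08 and 13.30 to 13.63. Why they differed was not tested, and it cannot be told apart from the genotype.

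The transgene's own gene was checked first. The 1 probe set of jumu read 13.62, 13.35 and 13.69 in the UAS-jumu arrays and 11.35, 11.56 and 11.44 in the controls. All 3 UAS-jumu arrays lay above all controls, by a difference of 2.11 ± 0.14 (SE, limma adjusted p = 0.0165), or 4.31-fold. The call was lost whichever array was left out (adjusted p 0.0633 to 0.104).

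The gene hlk had the largest difference of these genes, and both of its probe sets showed it. Probe set 1639033_at read 12.06, 12.11 and 12.08 in the UAS-jumu arrays and 6.02, 6.34 and 6.76 in the controls. Probe set 1630402_at read 10.90, 10.84 and 11.00 against 5.58, 5.66 and 5.26. In each probe set the groups were far apart: the lowest UAS-jumu array stood 5.30 and 5.18 above the highest control. The group means of 1639033_at were 12.08 ± 0.02 (SD, n = 3) and 6.37 ± 0.37 (SD, n = 3), a difference of 5.71 or 52.3-fold. Those of 1630402_at were 10.91 ± 0.08 (SD, n = 3) and 5.50 ± 0.21 (SD, n = 3), a difference of 5.41. Since its control mean lay below 6, this difference is also given against that level, from which the UAS-jumu mean was 4.91 higher, or 30.1-fold. The differences of the 2 probe sets were 0.30 apart, less than the control SD of the brighter one.

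For klar, which has 1 probe set (1628155_at), the UAS-jumu arrays read 11.21, 11.22 and 11.31, and the controls 7.07, 6.76 and 7.45. The control signal lay above 6 in each array, so that klar was measured on both sides. Its means were 11.25 ± 0.06 (SD, n = 3) and 7.10 ± 0.35 (SD, n = 3), which differed by 4.15 or 17.8-fold, with 3.76 between the lowest UAS-jumu and the highest control array. In the controls klar was brighter than 62.7% of all probe sets, and in the UAS-jumu arrays brighter than 92.6%.

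The 2 probe sets of lobo disagreed. Probe set 1640559_at read 10.22, 10.32 and 10.17 in the UAS-jumu arrays and 5.71, 6.01 and 5.77 in the controls, with no overlap. Its means were 10.24 ± 0.08 (SD, n = 3) and 5.83 ± 0.16 (SD, n = 3), a difference of 4.41, of which 4.24 (18.9-fold) lay above a signal of 6. Probe set 1634894_at read 5.37, 4.79 and 3.16 in the UAS-jumu arrays and 5.90, 5.36 and 2.85 in the controls. There the groups overlapped, and every value lay below 6, where this table does not resolve levels well. The difference of -0.26 has no settled sign: it ran from -1.19 to 0.38 without 1 array, and was 0.03 with hybridization and 0.36 with poly-A controls. The RefSeq record of lobo joins 2 older gene models, CG13661 and CG13662; which part of the gene each probe set reads is not given in the sources used here.

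CG12885 had the smallest difference of these genes, and only its brighter probe set gave a usable reading. Probe set 1625192_at read 9.70, 9.93 and 9.80 in the UAS-jumu arrays and 7.26, 7.38 and 7.38 in the controls. Both groups were measured above 6 and did not overlap. The means of 9.81 ± 0.11 (SD, n = 3) and 7.34 ± 0.07 (SD, n = 3) differed by 2.47, or 5.54-fold. Probe set 1630379_s_at read 2.47, 2.44 and 2.85 against 2.51, -0.45 and 5.16. Its control arrays spanned 5.61 log2 units and enclosed all the UAS-jumu values, so it gives no usable reading of the gene.

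**Figure D1:**
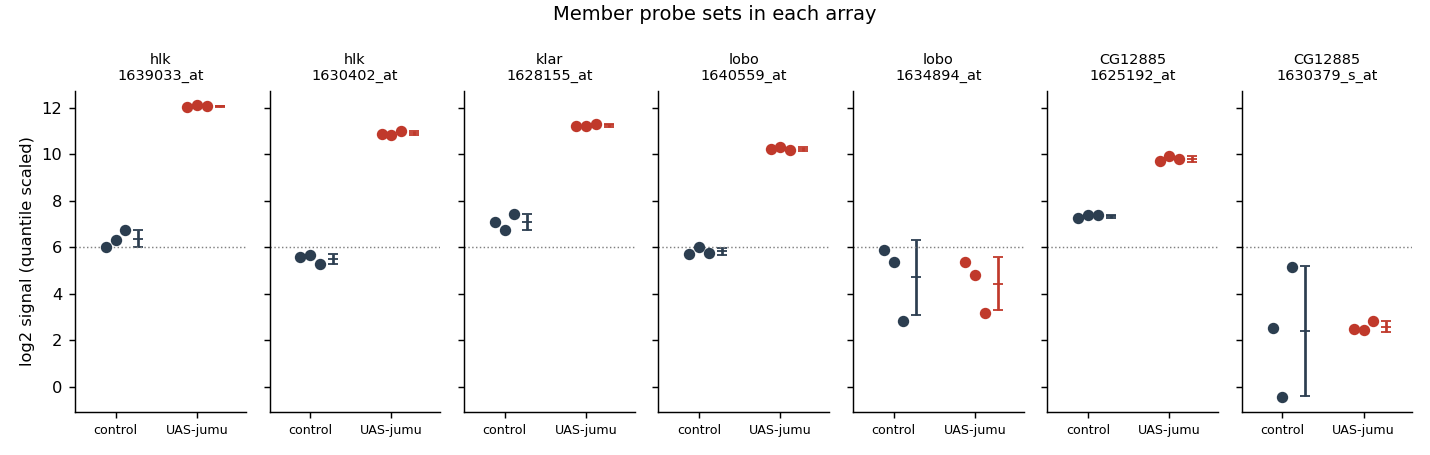
Log2 signal (y axis, quantile scaled) of the 7 probe sets in each array, with points for single arrays, bars for mean ± SD (n = 3) and a dotted line at 6. In 5 probe sets the UAS-jumu arrays (red) lie well above the controls (dark), and in 1634894_at of lobo and 1630379_s_at of CG12885 the groups overlap at low signal.

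In 5 of the 7 probe sets all UAS-jumu arrays lay above all controls, and at least 1 probe set of each gene did so. This held for 14.3% of all probe sets, but the genes were chosen on this contrast and nothing is read from the count. The order of the differences was hlk, lobo, klar and CG12885. Neighbours in that order were 1.01 apart (hlk 1630402_at and lobo 1640559_at), 0.26 apart (lobo 1640559_at and klar 1628155_at) and 1.68 apart (klar and CG12885 1625192_at). The gap between lobo and klar was smaller than the SD of 0.35 among the klar controls. That SD is a spread of single arrays and not the error of the gap, which was not tested. The control mean of lobo also lay below 6, so the order of these 2 genes is not settled. All 4 genes exceeded the difference of jumu itself, by 3.60 for hlk, 2.30 for lobo and 2.04 for klar but 0.36 for CG12885 (brightest probe set of each). The levels were unlike: the control mean of jumu was 11.45, and those of the members ran from 5.83 to 7.34. Since the members were picked for large differences, nothing is read from this excess.

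The replicate spread of the members was not uniformly low. In the UAS-jumu arrays the SD of hlk 1639033_at, 0.02, was under the median of 0.05 for probe sets with means from 12 to 13. That of klar, 0.06, was at the median of 0.06 for means from 11 to 12. Those of hlk 1630402_at and lobo 1640559_at, both 0.08, lay above the median of 0.07 for means from 10 to 11, and that of CG12885 1625192_at, 0.11, above the median of 0.09 for means from 9 to 10. In the controls hlk 1639033_at (0.37) and klar (0.35) lay above the medians of 0.31 and 0.22 for their levels. By contrast hlk 1630402_at (0.21) and lobo 1640559_at (0.16) lay below the median of 0.48 for theirs. CG12885 1625192_at (0.07) lay below that of 0.22.

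**Figure D2:**
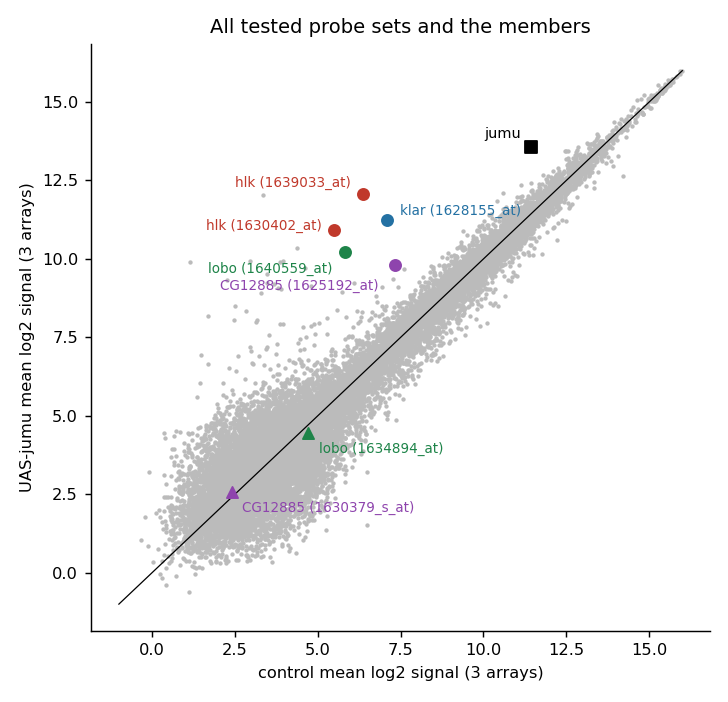
Mean log2 signal in the UAS-jumu arrays (y axis) against the control arrays (x axis), 3 arrays each, for all 18769 tested probe sets (grey), the 7 member probe sets (circles and triangles) and jumu (square), with the line of equal signal. The 5 circles start from control means between 5.50 and 7.34 and stand far off the line, and the 2 triangles lie in the wide cloud of dim probe sets.

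The place of these genes among all others depended on how dim controls were treated. By the fitted difference, over 11982 genes each at its brightest probe set, hlk stood at rank 9, lobo at 22, klar at 26 and CG12885 at 131. When a control mean under 6 was raised to 6, a treatment chosen with the values in view, hlk stood at rank 2, lobo at 3, klar at 4 and CG12885 at 18. These sizes are lower bounds for genes with control means under 6, lobo included, so genes near each other in this order cannot be ranked exactly. The 1 gene above hlk was CG31606, whose control mean of 3.35 gave a difference of at least 6.05. Of the 17 genes above CG12885, 14 had control means under 6. The treatment shrinks only the differences of genes with dim controls, and the members were picked for large differences. Nothing is therefore read from these ranks.

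A dim further probe set with a small difference was also seen in other genes with large differences. Of 1094 genes with more than 1 probe set, 8 had a brightest probe set that was at least 2 higher in UAS-jumu and at a signal of at least 9 there, limits set after seeing the data. In 4 of the 8, another probe set differed by less than 0.5. These were lobo, CG12885, the chloride channel gene ClC-a and the neuroligin gene Nlg2, and in each the other probe set stayed below 6 in both groups. Levels are not well resolved there, and the dim probe set of CG12885 gives no usable reading. In hlk, CG31606, rdgC and CG14642 the other probe sets differed by at least 1.06.

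The patterns most like each member among the other genes, with hlk, klar, lobo and CG12885 themselves left out of the search, were found by the Euclidean distance over the 6 arrays, with each gene taken minus its own control mean, among 6273 genes with both means of at least 6. That limit leaves out genes with large differences from dimmer controls, such as ClC-a (6.05) and rdgC (5.53). The control mean of lobo, 5.83, would itself fall below it. The nearest genes and their distances therefore hold only within this limit. For klar the nearest non-member was CG14332, at a distance of 1.99, followed by jumu (3.59) and SCAP (3.69), which encodes the escort protein of the SREBP lipid regulator. For lobo they were CG14332 (2.57), jumu (3.997) and CG14642 (4.06). For hlk they were CG14332 (4.67), CG15484 (6.23) and jumu (6.26), the widest such distances of the 4 members. For CG12885 they were jumu (0.75), CG14642 (0.82) and SCAP (0.83). Members were in part nearer to each other than to these genes: klar and lobo were 0.82 apart, hlk stood 2.33 from lobo and 2.74 from klar, and hlk and CG12885 were farthest apart, at 5.63.

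CG14332, the nearest non-member to hlk, klar and lobo among the genes searched, read 9.29, 9.15 and 9.22 in the UAS-jumu arrays and 6.77, 5.30 and 6.23 in the controls. Its groups did not overlap, and its control SD of 0.74 was larger than that of any of the 5 separated member probe sets. SCAP read 9.32, 9.49 and 9.23 against 6.84, 7.53 and 7.47, a difference of 2.07. These genes were found by their likeness in the same contrast, so no test is given for them either.

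**Figure D3:**
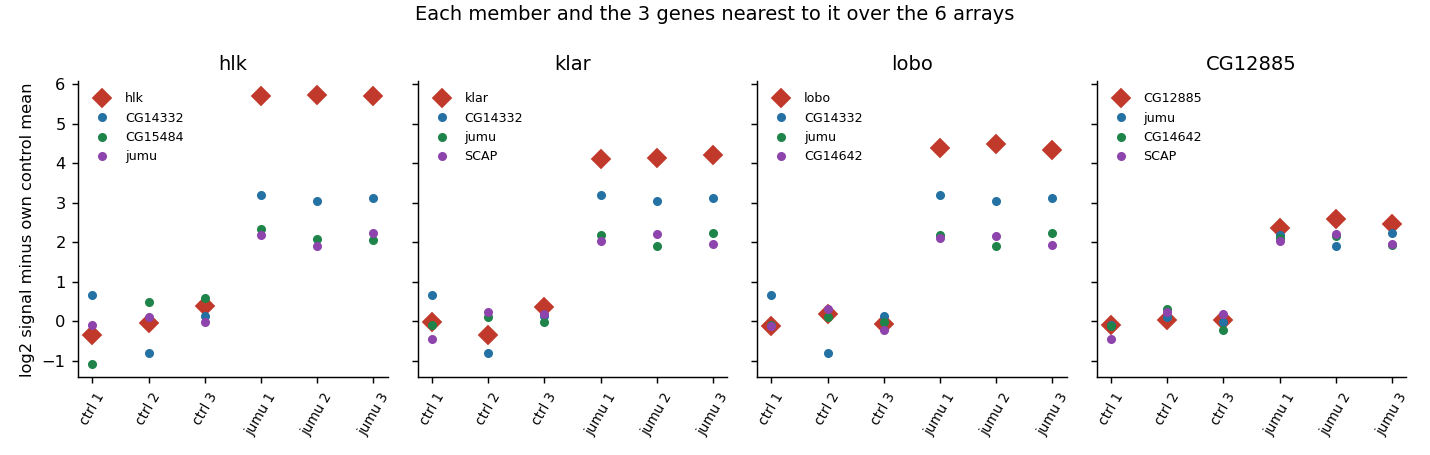
Log2 signal minus the gene's own control mean (y axis) in each of the 6 arrays (x axis) for the brightest probe set of each member (diamonds) and the 3 non-member genes nearest to it (circles). The nearest genes were sought among those with both means of at least 6. Each member lies above its 3 nearest genes in all 3 UAS-jumu arrays, with the smallest gap for CG12885.

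The large differences did not extend to those measured genes beside the members that had both means of at least 6. The RefSeq gene table (Release 6 assembly), used for gene order alone, places hlk on arm 2R, klar on 3L, and lobo and CG12885 on 3R. Of the 24 nearest measured genes, 3 on each side of each member, limma called 0 higher and 1 lower at an adjusted p under 0.05, beside 1.61% and 1.71% of all genes. At an unadjusted p under 0.05, 4 were higher and 4 lower, beside 10.8% and 11.7% of all genes. With an intensity trend in limma's variance prior 2 were called higher and 3 lower, beside 10.3% and 10.9%. With scaling to poly-A controls, which put the all-gene median at 0.82, 8 were called higher and 0 lower, beside 45.1% and 0.634%. Of the 24 genes 9 had both means of at least 6, among them none of the neighbours of CG12885.

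The one neighbour that passed was dan, which encodes the transcription factor Distal antenna and lies within the span of lobo in the gene table. It fell by 0.98 ± 0.12 (SE, limma adjusted p = 0.0367), from 8.35 ± 0.14 (SD, n = 3) in controls to 7.37 ± 0.10 (SD, n = 3), while lobo 1640559_at was 4.41 higher in the same arrays. The call of dan was lost whichever array was left out (adjusted p 0.0892 to 0.138) and with the replicate number as a block (adjusted p = 0.238). It was also lost with median centring (difference -0.73, adjusted p = 0.264), with hybridization controls (-0.44, adjusted p = 0.304) and with poly-A controls (-0.11, adjusted p = 0.703). The call of dan was kept without scaling (-1.01, limma adjusted p = 0.0352) and with the intensity trend (adjusted p = 0.000161). It was also kept when only probe sets above the median level were fitted (adjusted p = 0.00336). The paralog of dan, danr, on the other side of lobo, differed by -0.56 ± 0.31 (SE, adjusted p = 0.422). The next genes out, Bili and CG13653, were below 6 in both groups. Beyond them, Clbn differed by -0.18 ± 0.09 (SE, adjusted p = 0.379), and CG13654, with a control mean of 4.93, read 6.06 in the UAS-jumu arrays (adjusted p = 0.214).

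Beside hlk, the nearest gene on each side with both means above 6 differed by far less than hlk did. On one side chk, a gene of the monocarboxylate transporter family, differed by 0.41 ± 0.09 (SE, adjusted p = 0.105), and on the other phtf by 0.33 ± 0.11 (SE, adjusted p = 0.194). Further out, Mccc2, which encodes a subunit of methylcrotonoyl-CoA carboxylase, differed by -0.65 ± 0.12 and CG3420 by -0.51 ± 0.12 (SE, adjusted p = 0.0743 and 0.110). With the intensity trend all 4 passed, chk and phtf upward and the other two downward. The zinc transporter family genes Zip42C.1 and Zip42C.2, between chk and hlk, were below 6 in both groups.

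Around klar, CG1233 differed by 0.04 ± 0.09 and BORCS6, named for a subunit of the BORC complex of lysosome positioning, by 0.25 ± 0.12 (SE, adjusted p = 0.858 and 0.357). CG34267 and CG34269 lie within the span of klar and were below 6 in both groups, as were CG13884 and CG13891. All 6 neighbours of CG12885, among them the gustatory receptor genes Gr98b, Gr98c and Gr98d, had means below 6 in both groups, with differences from -2.11 to 1.46 and adjusted p from 0.166 to 0.848.

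**Figure D4:**
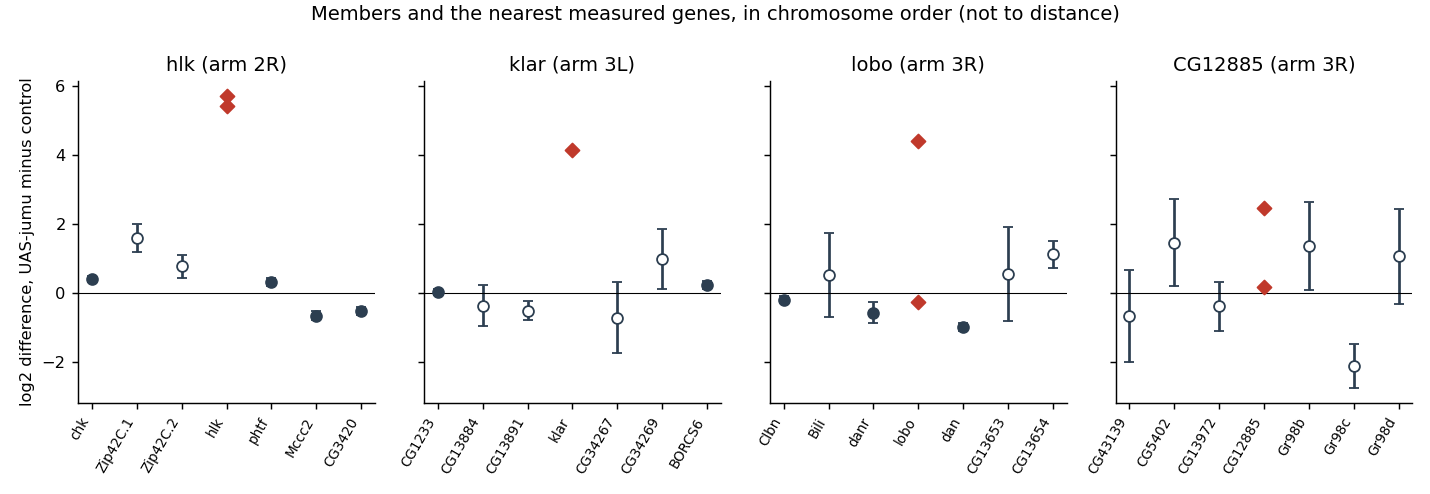
Log2 difference (y axis, UAS-jumu minus control) of each member's probe sets (red diamonds) and of the 3 nearest measured genes on each side (circles with limma SE, n = 3 arrays per group), in chromosome order and not to distance. Filled circles have both group means of at least 6; none of the 9 filled circles lies beyond 0.98 in size.

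The partners of klar were examined through a list of 27 genes of nuclear anchoring, microtubule motors and lipid droplet transport, of which 21 were measured. Of these, 1 rose and 0 fell, beside 1.61% and 1.71% of all genes, and the median difference was -0.10 against -0.01 over all genes. At an unadjusted p under 0.05, 4 were higher and 3 lower (10.8% and 11.7% of all genes). With the intensity trend 4 were called higher and 6 lower (10.3% and 10.9% of all genes). The one that rose was Ote, which encodes the inner nuclear membrane protein Otefin, by 1.22 ± 0.09 (SE, limma adjusted p = 0.0220), from 10.18 ± 0.04 (SD, n = 3) to 11.40 ± 0.06 (SD, n = 3). That call was lost when any 1 array was left out.

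The direct partner gene koi read a difference of 0.43 ± 0.12 (SE, adjusted p = 0.152), and Msp300, which encodes the other large KASH-domain protein of the fly, -0.43 ± 0.19 (SE, adjusted p = 0.318). Dhc64C, the heavy chain gene of cytoplasmic dynein, differed by -0.33 ± 0.10 and the kinesin light chain gene Klc by -0.55 ± 0.14 (SE, adjusted p = 0.171 and 0.122). Lsd-2, a perilipin gene of lipid droplets, differed by -0.27 ± 0.09 (SE, adjusted p = 0.192), and halo, a regulator of droplet transport, was below 6 in both groups. Other genes of the list were higher, such as nudE by 0.42 ± 0.12 and egl by 0.36 ± 0.11 (SE, limma adjusted p = 0.158 and 0.166). Dhc64C, Klc, Lsd-2, halo, nudE and egl were named after their values were seen. The list's median turned to 0.09 with median centring, 0.38 with hybridization controls and 0.71 with poly-A controls, each below the median of all genes under the same scaling (0.19, 0.49 and 0.82). Genes counted as measured only with a probe set annotated to exactly 1 gene under a matched symbol. The lamin gene Lam and the kinesin heavy chain gene Khc had none. Whether other probe sets of the array read them was not examined.

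Genes of cilia and axonemes, the class of structure that lobo is known for, were mostly dim. Of 44 genes on the list 39 were measured, and 27 of these had both means under 6. Limma called 0 higher and 1 lower, beside 1.61% and 1.71% of all genes. Without adjustment 1 was higher and 4 lower at p under 0.05, beside 10.8% and 11.7%, and with the intensity trend 1 and 3 were called, beside 10.3% and 10.9%. The median difference was -0.18, and it became 0.26 when arrays were scaled to hybridization controls and 0.58 for poly-A controls, below the median of all genes in both. Without UAS-jumu replicate 1 it was -0.01 and without UAS-jumu replicate 3 -0.04. The gene that fell was Tektin-C, of the tektin family of axonemal filament proteins, from 10.06 ± 0.12 (SD, n = 3) to 8.88 ± 0.18 (SD, n = 3), a difference of -1.19 ± 0.14 (SE, limma adjusted p = 0.0354). The call was lost when any 1 array was left out. Gas8, a gene named for a dynein regulatory complex subunit, read 5.15 against 4.73 in controls, both below 6.

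The sorted cells carried mesodermal markers in both groups. Of 19 measured mesoderm genes 17 had a control mean of at least 6, among them twi (9.90 in UAS-jumu against 9.20), the FGF receptor gene htl and the transcription factor gene zfh1 (12.78 against 12.79). Such levels were not particular to this list. Control means lay under 6 in 2 of 13 nervous system and 1 of 15 epidermal and tracheal genes. They did so in 5 of 15 blood cell genes and in 5459 of all 11982 genes. Other cell types were present too: elav, a neuronal gene, read 13.32 in controls and 12.44 in UAS-jumu.

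**Figure D5:**
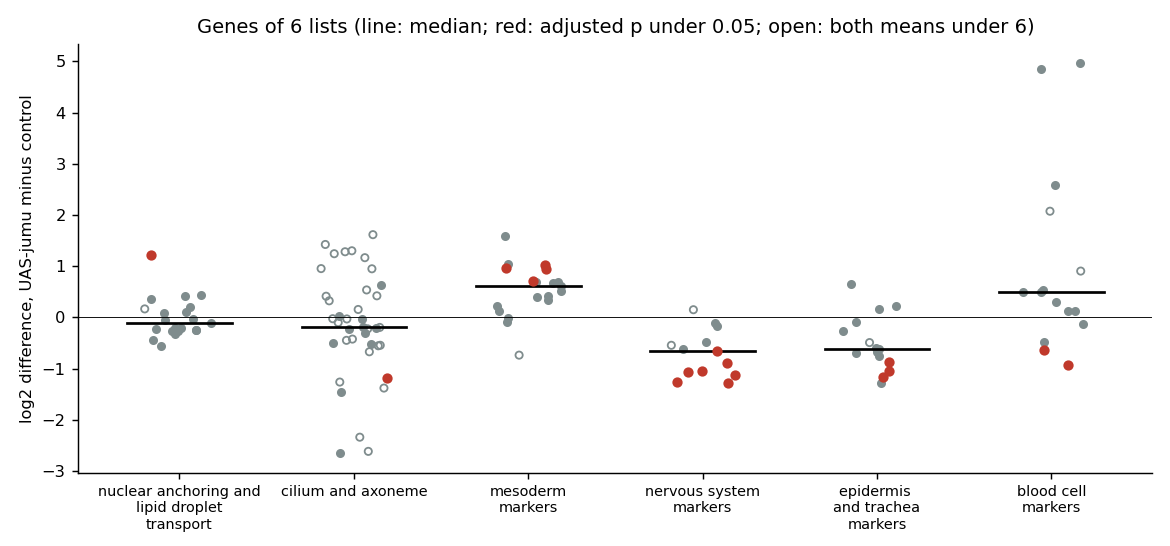
Log2 difference (y axis, UAS-jumu minus control) of each measured gene in 6 gene lists (x axis), with a black line at each list's median, red for an adjusted p under 0.05 and open circles for genes with both means under 6. The medians run from -0.65 (nervous system) to 0.61 (mesoderm), and the lists of klar partners and of cilium genes lie at -0.10 and -0.18.

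The marker levels moved with the genotype, and their part in the differences of hlk, klar, lobo and CG12885 was not tested. Of the mesoderm genes 4 rose and 0 fell, namely htl, rols, sns and lmd, by 0.70 to 1.03. The mean log2 signal over the list was 9.78 to 9.87 in the UAS-jumu arrays and 9.25 to 9.33 in the controls. Of 13 nervous system genes 7 fell and 0 rose, the 6 with the smallest p being fne, D, nerfin-1, insb, elav and repo (-1.27 to -0.89), and the mean signal was 9.002 to 9.04 against 9.59 to 9.81. Of 15 epidermal and tracheal genes 3 fell (grh, kni and pyr) and 0 rose, with a mean of 7.76 to 7.87 against 8.26 to 8.34. Beside these counts stand 1.61% of all genes called higher and 1.71% called lower. At an unadjusted limma p under 0.05, 14 mesoderm genes were higher and 0 lower. Of the nervous system genes 0 were higher and 9 lower, and of the epidermal and tracheal genes 1 and 9. The shares of all genes were 10.8% and 11.7%. The adjusted calls of these lists were lost when any 1 array was left out.

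Blood cell genes went both ways. Of 15 measured, 2 fell and 0 rose: PPO1, a prophenoloxidase gene of crystal cells, by 0.93 ± 0.10 and the peroxidase gene Pxn by 0.64 ± 0.09 (SE, limma adjusted p = 0.0307 and 0.0425). Beside these stand 1.71% and 1.61% of all genes. Without adjustment, p was under 0.05 in 6 that were higher and 3 that were lower, beside 10.8% and 11.7% of all genes. The hemocyte genes He and Hml read 6.65 and 7.99 in the UAS-jumu arrays against 1.69 and 3.13 in the controls (adjusted p = 0.0646 and 0.105). The mean signal over the list was 9.62 to 9.76 against 8.55 to 8.73. This mean leans on genes with dim controls, where levels are not well resolved. The largest differences, of He, Hml, NimC1 and eater, were 4.96, 4.86, 2.59 and 2.07, from control means of 1.69, 3.13, 3.66 and 2.63. The median difference of the list was 0.50. Whether the members' transcripts came from mesodermal or other sorted cells was not measured, and in sorted material fewer cells of a type and less RNA per cell cannot be told apart.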

How the data were processed

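The authors deposited 1 value per probe set and array, taken as log2 signals from their range, made with the package affy per the submitters' processing notes; version, background correction, normalization and probe summary: not given in the sources used here. Medians of the deposited arrays ran from 5.09 to 5.64, so arrays were quantile normalized without the 183 control probe sets. Symbols came from the platform annotation (13647 probe sets with 1 gene, 402 with several, 4720 with none listed), updated through the gene identifier for 13544. The brightest probe set stood for a gene. limma 3.58.1 in R 4.3.3 (lmFit, eBayes, two-sided) was fitted on all 18769 probe sets with Benjamini-Hochberg adjustment and a threshold of 0.05, and tested on simulated data. The number of arrays limits the precision.

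The members and lists were chosen with earlier results of these data known. Genes named were the members, jumu, 3 measured neighbours on each side, the 3 nearest profiles and the list genes past the threshold (at most 6 per list), with koi and Msp300; others were named after their values were seen and serve as examples. Lists were not set-tested. Same-numbered replicates had deviations correlated at -0.01, 0.00 and 0.01, so they were not treated as pairs. Alternatives were 4 other scalings, leaving out each array, an intensity trend, the replicate number as a block, a filter on dim probe sets and the mean over probe sets. Sequences were not used here.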

Additional observations from a re-analysis of the deposited data

How the results depend on the processing

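The differences of the 5 separated member probe sets stayed positive under every scaling, block and left-out array run. These genes were picked for their rises, and their groups lay 2.32 to 5.30 apart at the nearest arrays. The sign could therefore hardly turn, and nothing is read from it. Median centring gave 5.58 for hlk 1630402_at, 4.57 for lobo 1640559_at and 2.73 for CG12885 1625192_at. Scaling to hybridization controls gave 6.18 and 5.88 for hlk 1639033_at and 1630402_at, 4.69 for klar, 4.87 for lobo and 3.03 for CG12885, and scaling to poly-A controls 6.51, 6.20, 5.01, 5.20 and 3.36.

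Calls over the whole table turn on a threshold, so they are an unlike measure, and they changed with the setting. With median centring 20 probe sets were higher and 0 lower, with hybridization controls 31 and 0, with poly-A controls 6805 and 119, with the intensity trend 1543 and 1553, above the median level 1241 and 1339, and with the replicate number as a block 0 and 0. Without 1 array there were 0 to 21 higher and 0 to 1 lower.

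All lists had 0 calls with median centring, hybridization controls, the replicate block or 1 array left out, except 2 higher blood cell genes without control replicate 2. Poly-A controls gave, as higher, 15 (klar partners), 5 (cilium), 17 (mesoderm), 2 (nervous system), 3 (epidermis) and 11 (blood), and 0 lower in the last 3. The intensity trend gave, higher and lower, 4 and 6 for klar partners, 1 and 3 for cilium and 1 and 6 for epidermis, with 15 mesoderm and 7 blood genes higher. Above the median level these were 4 and 4, 1 and 2, 1 and 8, 15 and 3. The mean over probe sets gave 7 mesoderm and 3 blood genes higher and 2 cilium genes lower.

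The jumu call was lost with median centring (2.33, adjusted p = 0.0600), the replicate block (2.11, adjusted p = 0.238) and any left-out array (2.04 to 2.21). It was kept without scaling (2.06, limma adjusted p = 0.0206), with hybridization controls (2.63, adjusted p = 0.0228) and with poly-A controls (2.95, adjusted p = 0.00668). The intensity trend (adjusted p = 8.64e-13) and the fit above the median level (adjusted p = 0.000958) kept it too. Neighbours that turned sign did so as follows. Clbn read 0.12 with median centring, 0.42 with hybridization and 0.75 with poly-A controls, and CG3420 0.0876 and 0.41 with these controls. With poly-A controls Mccc2 read 0.24, CG13884 0.20, CG13891 0.10, danr 0.28 and CG13972 0.19. Without 1 array the dim genes Bili (-0.52 to 1.31), CG13653 (-0.83 to 1.59), CG13884 (-0.90 to 0.0687), CG13972 (-0.88 to 0.17), CG34267 (-1.42 to 0.24), CG43139 (-1.71 to 0.36) and Gr98d (-0.31 to 2.16) crossed 0. The cause of these changes was not tested. Signals below 6 limit 1634894_at of lobo and 1630379_s_at of CG12885.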
